A study of Mus musculus with 24 samples.

Results

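The genes described here are the members of the Sox family other than Sox2 that a list of 9 symbols named: Sox1, Sox3, Sox4, Sox9, Sox11, Sox12, Sox13, Sox15 and Sox21. They were chosen by symbol in 2 tables of gene expression, which list 23095 and 25476 genes, and the question was whether any of them rises when Sox2 is lost. Of the 9 members, 8 had a row in both tables, and Sox1 is not analysed here. All 8 passed the filter on low values, which asked for more than 1 read in total over the libraries of a table, and so were tested in every comparison.

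Poly(A) RNA of 24 mouse libraries was sequenced, with 2 replicates in each of 12 groups. The first table holds wild-type J1 embryonic stem cells (ESCs), grown in serum with LIF and 2 inhibitors on embryonic fibroblast feeders or on gelatin, and the extended pluripotent stem cells (EPSCs) made from them in either of 2 media. D-EPSCs were kept in N2B27 with LIF, CHIR99021, dimethindene maleate and minocycline hydrochloride, and L-EPSCs in LIF, CHIR99021, PD0325901, A-419259, XAV939, JNK inhibitor VIII and SB203580. The second table holds 3 conditional knockout (cKO) tet-off lines, each as ESCs, as untreated L-EPSCs and as L-EPSCs given doxycycline (Dox). In the Sox2-cKO line (2TS22C), the Oct4-cKO line (ZHBTc4) and the Nanog-cKO line (NgcKO), the gene's own alleles are deleted and a transgene that Dox silences supplies it. The untreated controls therefore carry the deletion and the transgene too, and each genotype is 1 established line. The tet-off lines have no D-EPSC group, since by the study's account D-EPSCs could not be made from them, and the duration of Dox before RNA was collected is not given in the sources used here. Nothing in the labels says that replicates were separate cultures, so the p-values measure only the spread between these samples, which may be technical.

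Sox proteins are transcription factors that bind DNA through an HMG box related to that of SRY. Sox2, with Sox1 and Sox3, forms the SoxB1 group, and in pluripotent cells Sox2 binds next to Oct4 (Pou5f1) at enhancers of genes such as Nanog and Fgf4. The SoxB2 protein Sox21 represses transcription, the SoxC proteins Sox4, Sox11 and Sox12 are activators of progenitor cells, and Sox13, Sox9 and Sox15 belong to the SoxD, SoxE and SoxG groups.

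Promoter windows, the 250 bases before each gene's RefSeq start on GRCm38.p6, are shown for the members that changed most with the loss of Sox2 and had an entry (Sox4, Sox13 and Sox21) and for Sox12, whose window alone among the members held the octamer ATGCAAAT, a POU factor motif. They are written 5′ to 3′ on the gene's strand, in lower case, with the octamer in capitals. In order, they lie at chr13:28953700-28953949, chr1:133424213-133424462, chr14:118237031-118237280 and chr2:152398047-152398296, all on the minus strand.
Sox4: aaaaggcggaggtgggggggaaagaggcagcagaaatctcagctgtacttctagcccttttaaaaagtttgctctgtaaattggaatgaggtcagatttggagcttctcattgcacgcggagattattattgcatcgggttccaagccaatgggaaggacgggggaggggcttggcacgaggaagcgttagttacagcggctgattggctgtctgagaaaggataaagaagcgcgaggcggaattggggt
Sox13: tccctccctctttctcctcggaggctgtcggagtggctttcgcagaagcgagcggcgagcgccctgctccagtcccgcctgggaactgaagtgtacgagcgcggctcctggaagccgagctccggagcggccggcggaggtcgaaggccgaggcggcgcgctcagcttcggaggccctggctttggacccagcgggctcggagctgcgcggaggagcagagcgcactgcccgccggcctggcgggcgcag
Sox21: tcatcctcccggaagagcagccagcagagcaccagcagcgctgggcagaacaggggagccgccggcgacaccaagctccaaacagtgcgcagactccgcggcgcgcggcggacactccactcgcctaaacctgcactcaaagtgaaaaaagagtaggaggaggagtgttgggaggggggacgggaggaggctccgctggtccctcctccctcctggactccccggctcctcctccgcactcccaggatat
Sox12: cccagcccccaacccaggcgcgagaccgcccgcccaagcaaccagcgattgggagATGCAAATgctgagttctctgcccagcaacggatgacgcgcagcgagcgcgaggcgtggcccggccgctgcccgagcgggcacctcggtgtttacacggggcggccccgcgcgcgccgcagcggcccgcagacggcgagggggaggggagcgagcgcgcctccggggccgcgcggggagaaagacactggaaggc
The octamer of Sox12 begins 195 bases before the start. Searched on both strands, the octamer was in 1.6% and the Sox motif CATTGT in 10.7% of 32851 such windows of all genes. CATTGT was in none of the windows of Sox1, Sox4, Sox11, Sox12, Sox13, Sox15 and Sox21, nor in that of Sox2 itself. No match says only that these letters are not in the window. Sox3 and Sox9 had no entry.

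The deposited values are read counts divided by a size factor for each library, here called normalized counts. The libraries held 11612919 to 15069899 reads in J1 cells and 10807631 to 14798984 in the tet-off lines. The 2 tables were normalized separately, so no test runs across them. Each Dox treatment lowered its own target in both libraries. Sox2 was at 4966 and 4701 normalized counts in untreated Sox2-cKO L-EPSCs and at 47.0 and 53.2 with Dox, a 94.8-fold difference in limma's fit (adjusted p = 2.4e-20). Pou5f1 differed 36.6-fold in the Oct4-cKO line (adjusted p = 7.3e-20) and Nanog 2.86-fold in the Nanog-cKO line (adjusted p = 5.8e-13), where it still stood at 3166 and 3112 with Dox against 9119 and 8847 without. The loss of Oct4 also took Sox2 from 5483 and 5480 to 260.3 and 229.8, which is 22.3-fold (adjusted p = 2e-18), whereas Sox2 stood at 3940 and 3895 against 4850 and 4848 in the Nanog-cKO line. The 2 lines that lost most of their Sox2 are thus the Sox2-cKO and the Oct4-cKO line.

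Of the 8 members, 2 rose when Sox2 was lost: Sox4 and Sox9. Sox11, Sox13 and Sox21 fell, and Sox3, Sox12 and Sox15 did not pass the test, which asked for an adjusted p under 0.05 over all genes and a change beyond 1 on the log2 scale. Of all 24007 genes tested, 15.1% were called in this comparison, 7.79% higher and 7.32% lower. Among the 11363 genes whose mean over the tet-off libraries reached 50 normalized counts, here called the expressed genes and added after seeing the data, 15.5% were called. Sox3 and Sox9 did not reach this mean. The median log2 fold change was -0.53 over the 8 members and 0.00 over all genes. The answer depends in part on the threshold: at 0.6, as used for the other comparisons, Sox12 would also be called higher (0.61, adjusted p = 1.2e-05). The fall of Sox11 is the weakest of the calls, since its groups overlapped and it was lost on leaving out certain single libraries.

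Sox9, a SoxE factor of cartilage, testis and many epithelial progenitors, is at chr11:112643538-112649074 (NCBIM37, as all gene positions here, plus strand, 3 exons). It was at 33.5 and 30.9 normalized counts in untreated Sox2-cKO L-EPSCs and at 129 and 132 with Dox. Both treated libraries were above both untreated ones, and the log2 fold change was 1.98 (SE 0.34, adjusted p = 0.00016), or 3.95-fold. Sox9 in the Oct4-cKO line was at 56.8 and 58.4 without and 53.0 and 45.5 with Dox. Its values in the Nanog-cKO line were 45.8 and 36.7 without and 29.0 and 23.6 with Dox. Neither of these differences passed the test (log2 fold change -0.23, adjusted p = 0.67, and -0.63, adjusted p = 0.22). The Dox effect on Sox9 in the Sox2-cKO line exceeded that in the Oct4-cKO line by 2.21 on the log2 scale (SE 0.48, adjusted p = 0.0024) and that in the Nanog-cKO line by 2.61 (adjusted p = 0.00048). Sox9 was thus higher after Dox in the Sox2-cKO line, and not detectably so in the Oct4-cKO line, in which Sox2 was also low.

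Sox4, a single-exon SoxC gene at chr13:29040788-29045582 (minus strand), was at 252 and 269 normalized counts in untreated Sox2-cKO L-EPSCs and at 836 and 874 with Dox. The groups did not overlap, and the log2 fold change was 1.71 (SE 0.066, adjusted p = 4.3e-12), or 3.27-fold. Sox4 in the Oct4-cKO line went from 268 and 290 to 731 and 689, a log2 fold change of 1.35 (SE 0.066, adjusted p = 4.9e-11). The Nanog-cKO line had 462 and 511 without and 601 and 603 with Dox, a difference of 0.31 that did not pass the fold threshold (adjusted p = 0.0024). Sox4 therefore rose in both lines with low Sox2. Its Dox effect was larger in the Sox2-cKO line than in the Oct4-cKO line by 0.37 (adjusted p = 0.0081) and than in the Nanog-cKO line by 1.40 (adjusted p = 7.8e-09). Of its exon bases, 54.6% are shared with Gm17419, an RNA gene on the other strand, which stood between 0 and 11.5 normalized counts in every library. Of them, 8.45% are also shared with a second gene record of the symbol Sox4 on the same strand (ENSMUSG00000078309), so the Sox4 values are uncertain to that extent whatever the strand setting. The strand setting of the read counting is not given in the sources used here.

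The other SoxC genes were not called higher. Sox12, at chr2:152219347-152223782 (minus strand, 2 exons), was at 338 and 322 normalized counts in untreated Sox2-cKO L-EPSCs and at 463 and 548 with Dox. The treated libraries were above the untreated ones, but the log2 fold change of 0.61 (SE 0.081, adjusted p = 1.2e-05) was under the fold threshold. The values were 235 and 276 against 332 and 353 in the Oct4-cKO line (0.42, adjusted p = 0.00038) and 497 and 499 against 898 and 916 in the Nanog-cKO line (0.86, SE 0.081, adjusted p = 6.9e-07). Sox12 was thus higher with Dox in all 3 lines, beyond the fold threshold in none, and the interaction between the Sox2-cKO line and either other line was not significant (adjusted p = 0.31 and 0.12). Sox11, at chr12:28025562-28027574 (minus strand, 1 exon), was at 25.9 and 61.9 without and 10.7 and 27.8 with Dox in the Sox2-cKO line. These groups overlapped. The log2 fold change of -1.16 (SE 0.38) had an adjusted p of 0.023, and the call was lost without treated replicate 1 (-0.51, adjusted p = 0.40), without untreated replicate 2 (-0.55, adjusted p = 0.38) or when only the 2 groups were fitted (adjusted p = 0.42). Sox11 was at 16.9 and 27.0 without and 16.1 and 16.7 with Dox in the Oct4-cKO line, and at 198 and 199 without and 232 and 233 with Dox in the Nanog-cKO line, and neither passed the test (adjusted p = 0.51 and 0.79).

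Sox3, the SoxB1 gene closest to Sox2 here, lies on the X chromosome at chrX:58144545-58146605 (minus strand, 1 exon). It was not called with the loss of Sox2. It stood at 46.5 and 34.9 normalized counts in untreated Sox2-cKO L-EPSCs and at 28.9 and 16.4 with Dox, and the log2 fold change of -0.86 (SE 0.41) did not pass the test (adjusted p = 0.12). In the Oct4-cKO line Sox3 was at 39.0 and 29.6 without Dox and at 1.15 and 0 with it. These are 77 reads against 1, a ratio of 60.8 with a 95% interval for counting error alone of 10.6 to 2433, and the change was called (adjusted p = 8.9e-08). The Nanog-cKO line had Sox3 at 38.3 and 60.2 without and 58.0 and 64.1 with Dox (0.34, adjusted p = 0.66). The Dox effects on Sox3 in the Sox2-cKO and Oct4-cKO lines differed by 3.72 on the log2 scale (adjusted p = 0.00013).

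Sox21, the SoxB2 gene at chr14:118632454-118636252 (minus strand, 1 exon), had the largest fall of the 8 members in the Sox2-cKO line. It went from 579 and 582 normalized counts to 62.7 and 95.7 with Dox, a log2 fold change of -2.89 (SE 0.16, adjusted p = 2.7e-10), or 7.41-fold. Sox21 in the Oct4-cKO line went from 253 and 268 to 93.3 and 92.1 (-1.48, SE 0.16, adjusted p = 7e-07). The Nanog-cKO line had Sox21 at 69.2 and 85.6 without and 67.6 and 66.3 with Dox (-0.20, adjusted p = 0.44). Sox21 thus fell in both lines with low Sox2, by 1.41 more on the log2 scale in the Sox2-cKO line than in the Oct4-cKO line (adjusted p = 0.00014). Of its exon bases, 18.8% are shared with Gm4675 on the other strand, which was at 16.2 and 29.9 without and 0 and 1.64 with Dox in the Sox2-cKO line, and whose part in the Sox21 values was not tested.

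Sox13, a SoxD gene at chr1:135278880-135320954 (minus strand, 14 exons), fell in both of these lines. It went from 424 and 465 normalized counts to 104 and 102 in the Sox2-cKO line (-2.10, SE 0.11, adjusted p = 1e-10) and from 359 and 431 to 92.1 and 78.8 in the Oct4-cKO line (-2.19, SE 0.11, adjusted p = 3.6e-11). The difference between these effects was 0.10 on the log2 scale with an SE of 0.15 (adjusted p = 0.73). In the Nanog-cKO line Sox13 was at 245 and 262 without and 227 and 207 with Dox (-0.23, adjusted p = 0.15), and there the effect differed from that in the Sox2-cKO line by -1.87 (adjusted p = 6.2e-08). Sox15, the only SoxG member and known from muscle regeneration, is at chr11:69468816-69470229 (plus strand, 2 exons). It was at 232 and 239 normalized counts without and 199.6 and 211 with Dox in the Sox2-cKO line. That difference of -0.20 did not pass the test (adjusted p = 0.065). Sox15 was at 343 and 364 without and 465 and 441 with Dox in the Oct4-cKO line (0.36, adjusted p = 0.0017), and at 320 and 298 without and 201 and 228 with Dox in the Nanog-cKO line (-0.52, adjusted p = 0.00014), both under the fold threshold.

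**Figure D1:**
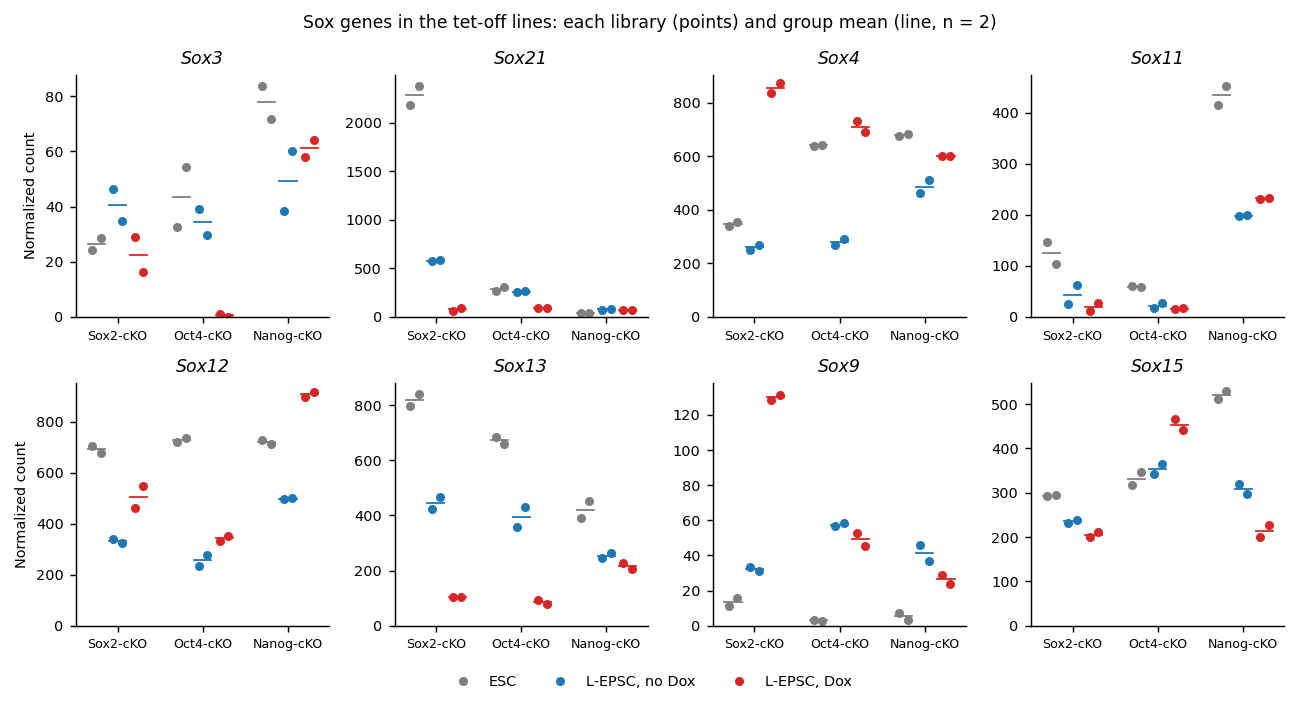
Normalized counts of the 8 Sox genes in the 18 tet-off libraries, on linear axes, with 1 point per library and a line at each group mean. Sox4 stands at 836 and 874 with Dox in the Sox2-cKO line and 252 and 269 without, and Sox21 at 62.7 and 95.7 with and 579 and 582 without.

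Counted over lines, the Oct4-cKO line had 1 member higher (Sox4), 3 lower (Sox3, Sox13 and Sox21) and 4 not called with Dox, where 19.3% of all genes were called (8.53% higher and 10.8% lower), and 21.1% of the expressed genes. With Dox in the Nanog-cKO line limma called 0 of 8 members, edgeR and DESeq2 also called 0, and 4 members had an unadjusted p under 0.05, while 5.39% of all genes were called (2.80% higher and 2.59% lower). For the interaction, called at an adjusted p under 0.05 alone, 5 members differed between the Sox2-cKO and the Nanog-cKO line (29.4% of all genes) and 5 between the Sox2-cKO and the Oct4-cKO line (24.5%). Between the Oct4-cKO and the Nanog-cKO line, a comparison added after seeing the data, 6 differed (33.3%). Such differences between lines were common among the expressed genes, of which 53.1%, 46.6% and 58.6% were called. The members' counts lie near this background, which leaves out Sox3 and Sox9. Sox9 differed in both interactions that involve the Sox2-cKO line and was not called between the Oct4-cKO and the Nanog-cKO line (0.40, adjusted p = 0.59).

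**Figure D2:**
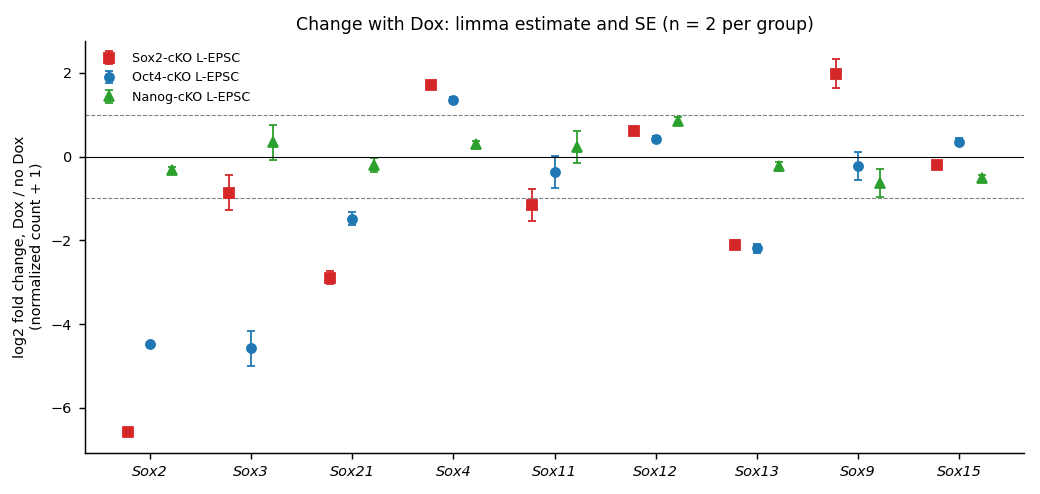
Log2 fold change with its standard error for Dox against no Dox in L-EPSCs of the 3 tet-off lines, for the 8 Sox genes and Sox2. Sox9 is at 1.98 in the Sox2-cKO line, -0.23 in the Oct4-cKO line and -0.63 in the Nanog-cKO line.

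To set levels of different genes side by side, normalized counts were divided by the length of each gene's exons in kb. All exon bases were used, also the 54.6% of Sox4 and 18.8% of Sox21 that are shared with a gene on the other strand. If reads there were not counted, Sox4 and Sox21 stand too low in the orders below. In untreated Sox2-cKO L-EPSCs Sox2 stood first with a mean of 1967 normalized counts per kb, followed by Sox15 (274), Sox21 (153), Sox13 (103), Sox12 (79.1), Sox4 (54.3), Sox11 (21.8), Sox3 (19.7) and Sox9 (7.79). The libraries of neighbours in this order did not overlap, except for Sox11 and Sox3. With Dox the order of levels per kb was Sox15 (238), Sox4 (178), Sox12 (121), Sox9 (31.5), Sox13 (23.9), Sox21 (20.8), Sox2 (20.4), Sox3 (11.0) and Sox11 (9.57). Here Sox13 overlapped Sox21, Sox21 overlapped Sox2, and Sox3 overlapped Sox11. In the Oct4-cKO line with Dox, Sox2 was at 99.7 per kb, behind Sox15 (526) and Sox4 (148), and in the other 10 groups of the study Sox2 was first.

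The summed level of the 8 members was lower in both treated than in both untreated libraries of the Sox2-cKO line, a description with no test. Its direction may depend on the unknown strand setting, since Sox4 rose and would weigh more if reads on its shared bases were not counted. It was 697 and 728 normalized counts per kb without Dox and 608 and 661 with it, while Sox2 went from 2021 and 1913 to 19.1 and 21.6 per kb. Sox2 thus made up 74.3% and 72.5% of the summed level of these 9 genes without Dox, and 3.05% and 3.17% with it. For the Oct4-cKO line the sum over the 8 members was 701 and 761 without and 840 and 802 with Dox, and the share of Sox2 went from 76.1% and 74.5% to 11.2% and 10.4%. In the Nanog-cKO line the sum was 790 and 792 without and 795 and 828 with Dox, with Sox2 at 71.4% in both untreated and at 66.9% and 65.7% in the treated libraries.

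**Figure D3:**
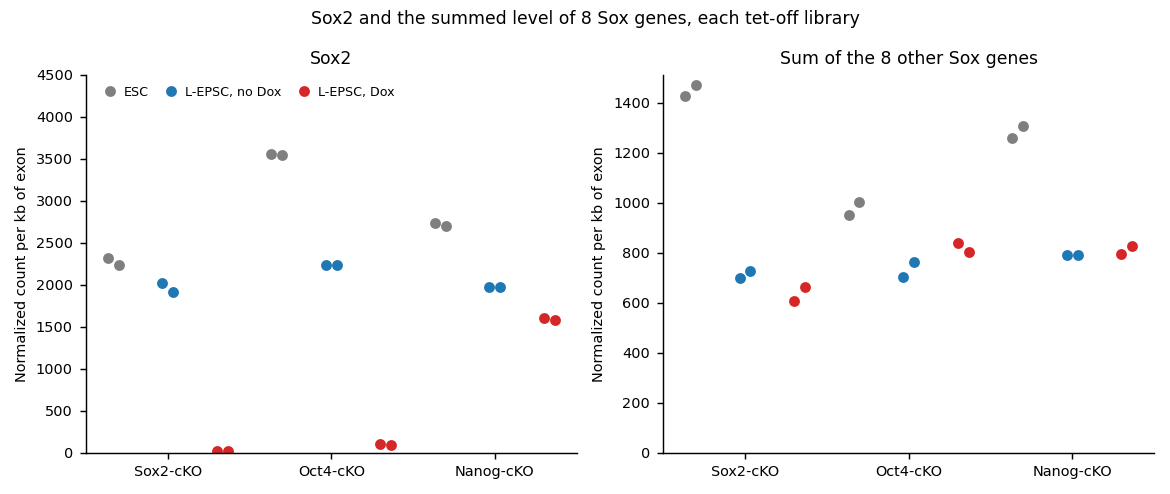
Summed normalized counts per kb of the 8 Sox genes and the level of Sox2 in each library. The sum of the 8 lies between 608 and 728 per kb in Sox2-cKO L-EPSCs with and without Dox, while Sox2 goes from 2021 and 1913 to 19.1 and 21.6.

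Other gene groups moved in the same comparison. Of 10 trophoblast markers 8 rose with Dox in the Sox2-cKO line (median log2 fold change 2.02), led by the simple epithelial keratins Krt7 (2.84), Krt18 (2.83) and Krt8 (2.81). Eomes and Hand1 were the 2 not called, and both were lower in each treated library, Eomes at 91.8 and 74.8 without and 45.4 and 50.7 with Dox, and Hand1 at 105 and 112 without and 62.7 and 63 with Dox. Summed, these markers were at 2271 and 2325 normalized counts without and 13088 and 13028 with Dox, most of it keratin, with Krt8 at 5346 and 5337 and Krt18 at 4404 and 4436 with Dox. Cdx2, a defining factor of that lineage, went from 7.56 and 4.99 to 19.0 and 22.1. Eomes, Hand1 and Cdx2 were named after their values were seen. In the Oct4-cKO line 6 of the 10 rose and the sum went from 5056 and 4872 to 30319 and 29826, and in the Nanog-cKO line 1 rose and the sum was 797 and 751 without and 1118 and 1093 with Dox. Sox4 was thus called in the 2 lines with the larger trophoblast sums, and Sox9 in only 1 of them. The part of these markers in the Sox4 and Sox9 results was not tested, and in bulk RNA fewer cells of a type and less RNA per cell cannot be told apart.

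Of 12 genes listed for enhancers that Oct4 and Sox2 are known to bind together, 10 fell and 0 rose with the loss of Sox2 (median -2.20), with Lefty1, a Nodal antagonist, at -5.76, Nanog at -3.48 and Fbxo15 at -3.21. All 10 pluripotency markers tested fell (median -1.79), of which some stand in the former list too. Of 8 neuroectoderm markers 5 fell and 0 rose (median -1.88), led by Neurod1 (-4.57) and Tubb3 (-3.14), whereas the progenitor filament gene Nes was at 0.02. Among 10 POU family genes, 1 rose (Pou6f1, 1.48) and 2 fell (Pou4f1, -2.66, and Pou5f1, -1.39). Primitive endoderm markers went both ways, with 2 of 10 higher and 4 lower (Pdgfra at 2.17, Lama1 at -2.31 and Gata4 at -1.78). Of 10 mesoderm markers 1 rose and 3 fell. All of these counts stand beside the 7.79% of genes called higher and 7.32% called lower.

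Of 8 further Sox genes tested, 0 rose in the Sox2-cKO line, and 3 fell, all at very low levels. Sox10 had 9 reads without and 3 with Dox over both libraries, Sox17 24 and 6, and Sox18 7 and 0. The median of these 8 was -0.39.

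The conversion of ESCs to L-EPSCs, which the design also tests within each tet-off line, also changed several members, here while Sox2 was still supplied. The untreated L-EPSCs serve both as the end of this comparison and as the control of the Dox comparison, so the 2 are not independent. Here a change was called beyond 0.6 on the log2 scale. In the Sox2-cKO line 1 member was higher and 4 lower in L-EPSCs (19.6% of all genes called, 7.99% higher and 11.6% lower), in the Oct4-cKO line 1 and 4 (28.4%, 13.0% and 15.4%), and in the Nanog-cKO line 2 and 3 (26.9%, 12.2% and 14.7%). Of the expressed genes, 25.8%, 39.5% and 37.6% were called. The conversion effects differed between the Sox2-cKO and the Oct4-cKO line for 5 members (20.2% of all genes), between the Sox2-cKO and the Nanog-cKO line for 4 (25.5%) and between the Oct4-cKO and the Nanog-cKO line for 4 (25.8%), in tests added after seeing the data.

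Sox9 was the member that rose in all 3 lines. It was at 11.1 and 15.6 normalized counts in Sox2-cKO ESCs against 33.5 and 30.9 in their L-EPSCs (1.23, adjusted p = 0.009), a call that was lost without ESC replicate 1 (1.00, adjusted p = 0.065) or with only the 2 groups fitted (adjusted p = 0.08). In Oct4-cKO ESCs it was at 3.14 and 2.90, which are 6 reads against 129 in L-EPSCs, a ratio of 19.1 (95% counting interval 8.52 to 52.9, adjusted p = 7.1e-08). In Nanog-cKO ESCs it was at 7.32 and 3.36, 10 reads against 79, a ratio of 7.60 (3.92 to 16.5, adjusted p = 3.5e-06), a call that was lost with only the 2 groups fitted (adjusted p = 0.052). Within the Sox2-cKO line Sox9 thus stood lowest in ESCs, higher in untreated L-EPSCs and highest with Dox. The rise in the Sox2-cKO line was smaller than that in the Oct4-cKO line (difference -2.64 on the log2 scale, adjusted p = 0.00075).

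Sox13 fell on conversion by 0.72 to 0.88 on the log2 scale in the 3 lines, from 796 and 841 to 424 and 465 normalized counts in the Sox2-cKO line (adjusted p = 4.5e-06). In that line Sox13 thus stood highest in ESCs, lower in untreated L-EPSCs and lowest with Dox. Sox12 fell from 705 and 678 to 338 and 322 in the Sox2-cKO line (-1.06, adjusted p = 2.5e-08) and from 719 and 734 to 235 and 276 in the Oct4-cKO line (-1.51, adjusted p = 1.6e-10), and in the Nanog-cKO line it was at 728 and 713 against 497 and 499 (-0.53, under the fold threshold). Sox4 fell past the threshold in the Oct4-cKO line (640 and 643 to 268 and 290, -1.20, adjusted p = 2.2e-10) and was at -0.41 and -0.48 in the Sox2-cKO and Nanog-cKO lines. The interaction between the Sox2-cKO and Oct4-cKO lines was significant (0.79, adjusted p = 1.3e-05). With Dox, Sox4 was at 731 and 689 in the Oct4-cKO line, and in the Sox2-cKO line at 836 and 874 it was above the 338 and 355 of its ESCs.

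Sox21 stood at different levels in the ESCs of the lines. In Sox2-cKO ESCs it was at 2184 and 2381 normalized counts, against 263 and 310.4 in Oct4-cKO and 42.9 and 42.6 in Nanog-cKO ESCs. On conversion it fell in the Sox2-cKO line (-1.97, SE 0.16, adjusted p = 4.2e-08), was at -0.13 in the Oct4-cKO line (adjusted p = 0.55) and rose in the Nanog-cKO line (0.83, adjusted p = 0.00033). The call in the Nanog-cKO line was lost with only the compared groups fitted (adjusted p = 0.056). The effects in the Sox2-cKO and Nanog-cKO lines differed by -2.81 (adjusted p = 1.2e-07). The Dox series in the Sox2-cKO line thus began from the highest Sox21 level of the 3 lines. Sox11 was lower in L-EPSCs of all 3 lines, at 146 and 104 against 25.9 and 61.9 in the Sox2-cKO line (-1.60, adjusted p = 0.0033), 59.6 and 59.0 against 16.9 and 27.0 in the Oct4-cKO line (-1.43, adjusted p = 0.0057) and 415 and 453 against 198 and 199 in the Nanog-cKO line (-1.12, adjusted p = 0.026). Each of these 3 calls was lost on leaving out 1 library. In the Sox2-cKO line this held for L-EPSC replicate 1 (-0.99, adjusted p = 0.1) and ESC replicate 1 (-1.35, adjusted p = 0.069). In the Oct4-cKO line it held for L-EPSC replicate 1 (-1.11, adjusted p = 0.11) and either ESC library, and in the Nanog-cKO line for any 1 of the 4 libraries (-1.19 to -1.06, adjusted p between 0.11 and 0.15). Sox15 was called in the Nanog-cKO line alone (511 and 530 to 320 and 298, -0.75, adjusted p = 9.4e-07), and its effect differed from those in the other lines (0.44, adjusted p = 0.0094 for the Sox2-cKO line and 0.84, adjusted p = 3.7e-05 for the Oct4-cKO line). Sox3 was not called in any line (adjusted p = 0.30, 0.62 and 0.22).

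**Figure D4:**
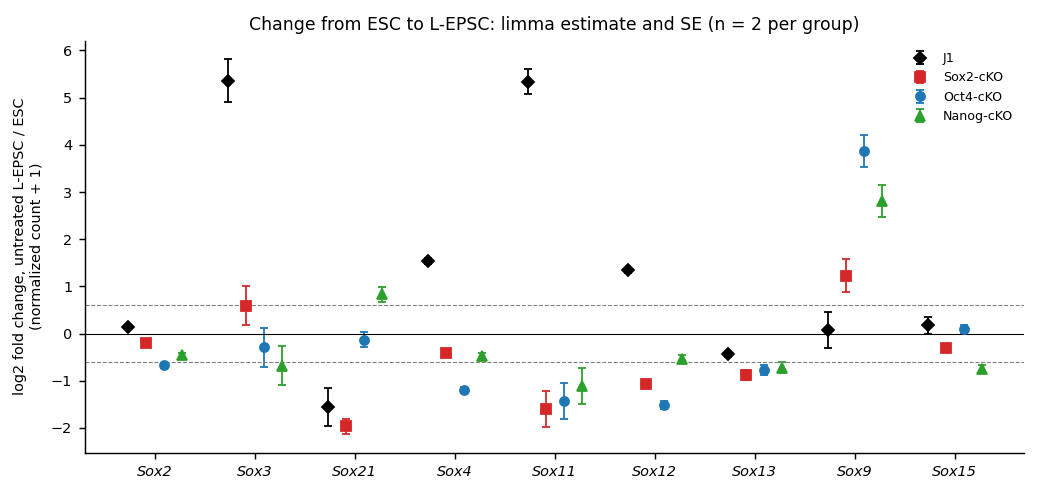
Log2 fold change with its standard error for L-EPSCs against ESCs in J1 cells and in the 3 tet-off lines, for the 8 Sox genes and Sox2. Sox12 is at 1.34 in J1 cells and between -1.51 and -0.53 in the tet-off lines, and the J1 values come from a table that was normalized separately.

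In J1 cells, with Sox2 present throughout, the picture of the SoxC genes was the opposite one. In D-EPSCs against ESCs 5 members rose and 0 fell (20.7% of all genes called, 10.8% higher and 9.98% lower), and in L-EPSCs against ESCs 4 rose and 1 fell (20.3%, 8.80% and 11.5%). Of genes whose mean over the J1 libraries reached 50, 24.9% and 24.8% were called. Both comparisons share the ESC libraries. Sox4 was at 210 and 197 normalized counts in ESCs, 1093 and 1099 in D-EPSCs and 599 and 591 in L-EPSCs, which were 2.42 (adjusted p = 1e-07) and 1.54 (adjusted p = 9.9e-07) above ESCs on the log2 scale. Sox12 was at 523 and 492.5 in ESCs, 1200 and 1129 in D-EPSCs and 1256 and 1314 in L-EPSCs, or 1.20 (adjusted p = 2.1e-06) and 1.34 (adjusted p = 1.2e-06). Sox11 had 8 reads in ESCs against 375 in D-EPSCs, a ratio of 51.4 (95% counting interval 25.8 to 120), and 340 in L-EPSCs, a ratio of 50.5 (25.3 to 118). Both kinds of EPSC were above the ESCs in every library for these 3 genes. The direction of all 3 in J1 L-EPSCs was thus the reverse of that in L-EPSCs of the tet-off lines. This contrast was not tested, and it lies between different cell lines as well as separately normalized tables. On the tet-off side, Sox4 passed the fold threshold in the Oct4-cKO line alone and Sox12 in all but the Nanog-cKO line. Each Sox11 call there was lost on leaving out 1 library.

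Sox3 was at 0.899 and 0 normalized counts in J1 ESCs, 1 read in all. It was at 42.9 and 54.8 in D-EPSCs (98 reads, ratio 107, 95% counting interval 18.8 to 4283, adjusted p = 6.5e-05) and at 48.3 and 64.4 in L-EPSCs (103 reads, ratio 122, 21.5 to 4881, adjusted p = 5.1e-05). Sox3 was thus nearly undetected in J1 ESCs, while ESCs of the tet-off lines had between 24.2 and 83.6 on the scale of their own table. The largest difference between the 2 kinds of EPSC among the members was in Sox21. It was at 27.9 and 36.0 in ESCs, 239 and 226 in D-EPSCs and 6.17 and 16.1 in L-EPSCs. L-EPSCs were below D-EPSCs, at -4.40 on the log2 scale (SE 0.40, adjusted p = 0.00014). Against ESCs, Sox21 was higher in D-EPSCs (2.84, SE 0.40, adjusted p = 0.00088) and lower in L-EPSCs (-1.56, adjusted p = 0.016). The former no longer passed when any 1 of the 4 libraries was left out (2.66 to 3.02, adjusted p between 0.061 and 0.077), and the latter was lost without L-EPSC replicate 1 (-0.93, adjusted p = 0.063) or either ESC library (-1.74 and -1.38, adjusted p = 0.16 and 0.23).

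**Figure D5:**
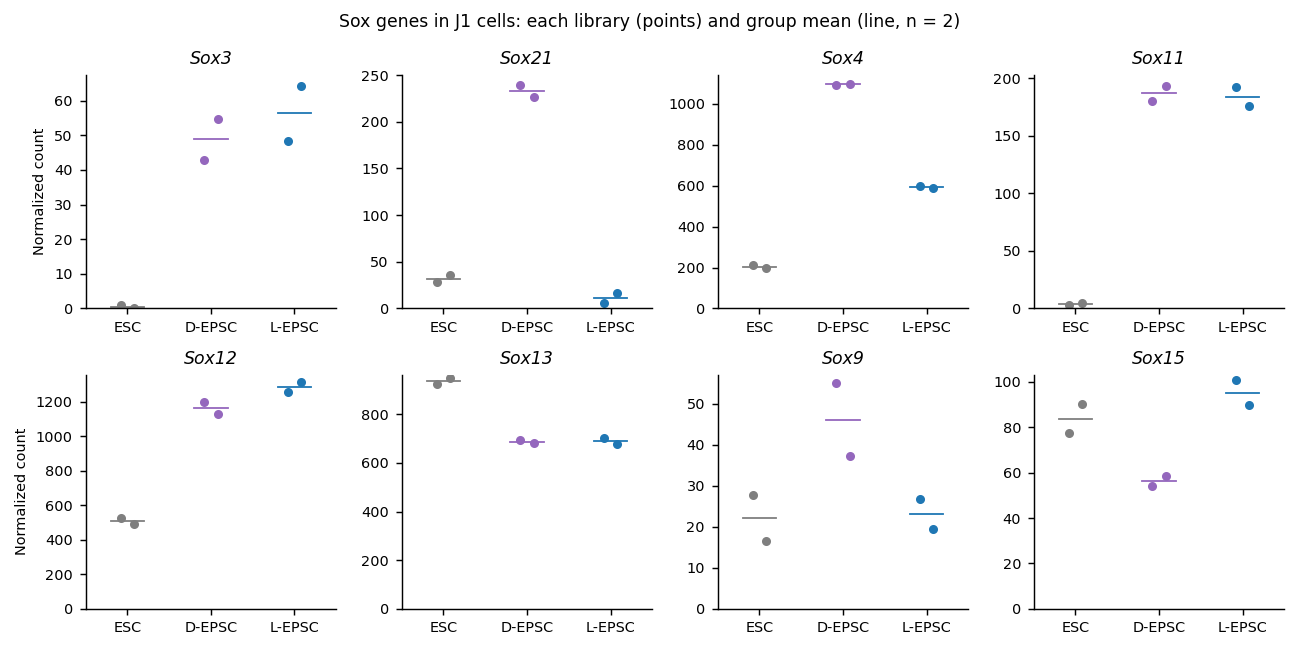
Normalized counts of the 8 Sox genes in the 6 J1 libraries, on linear axes, with 1 point per library and a line at each group mean. Sox4 stands at 210 and 197 in ESCs, 1093 and 1099 in D-EPSCs and 599 and 591 in L-EPSCs, and Sox21 is highest in D-EPSCs at 239 and 226.

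Between the 2 kinds of EPSC, 1 member was higher and 2 lower in L-EPSCs (13.4% of all genes called, 4.80% higher and 8.58% lower). Beside Sox21, Sox4 was lower (-0.88, adjusted p = 3.7e-05) and Sox15 higher (0.74, adjusted p = 0.017), the last at 54.1 and 58.7 in D-EPSCs and 100.8 and 89.6 in L-EPSCs and lost when any 1 of the 4 libraries was left out (adjusted p between 0.062 and 0.1). Sox13 was at 924 and 949 in ESCs, 694 and 680 in D-EPSCs and 703 and 678 in L-EPSCs, below the fold threshold in both (-0.45 and -0.44). Sox9 was at 27.9 and 16.6 in ESCs, 55.1 and 37.2 in D-EPSCs and 26.7 and 19.5 in L-EPSCs, and was not called against ESCs in either (adjusted p = 0.064 and 0.90). The summed level of 10 fibroblast markers was 101134 and 103437 in J1 ESCs, 62301 and 62458 in D-EPSCs and 22750 and 23181 in L-EPSCs, with the collagen gene Col1a1 at 44565 and 46016 in ESCs, where feeders may be used. Of these 10 markers, 8 fell and 0 rose in L-EPSCs against ESCs (median -1.44 on the log2 scale). In D-EPSCs 4 fell and 2 rose, with a median of -0.08, so the lower sum there was that of single genes, Col1a1 at 19651 and 20021 and Col1a2 at 14861 and 14798 against 23525 and 24167 in ESCs. Dcn, which like Col1a2 was named after its values were seen, was at 1616 and 1575 in D-EPSCs and 639 and 616 in ESCs. By the study's methods, both kinds of EPSC were grown without feeders for several passages before RNA was taken. In the tet-off libraries the sum of the 10 lay between 246 and 838. In J1 cells Sox3, Sox4, Sox11 and Sox12 were lowest in the group with the highest fibroblast sum, and the part of fibroblast RNA in their values was not tested.

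Over the 9 group means of the tet-off lines, the genes most like each member were ranked by Pearson's r of log2(normalized count + 1) among 11363 genes, as a description in which the groups share lines and controls. Nearest to Sox4 were Prr23a3 (r = 0.996) and Dffa (0.963). Sox11 was most like Bex2 (0.987) and Gnpda1 (0.970), Sox12 like Wrn (0.980) and Uhrf1bp1l (0.968), and Sox13 like Dusp4 (0.980) and Slc28a1 (0.979). For Sox21 they were Tesk2 (0.975) and Usp29 (0.967), and for Sox15 Zfp593 (0.935) and Med29 (0.929). Between the Sox genes themselves, Sox13 had r = 0.85 with Sox2, and Sox4 had r = -0.69 with Sox21.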

How the data were processed

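Poly(A) RNA of 24 libraries was sequenced as 150-base read pairs. Per the submitters' processing notes and the study's methods, the authors trimmed reads with Trim Galore 0.6.4, aligned them with STAR 2.7.9a, counted them per gene with HTSeq 0.11.2 on the NCBIM37 annotation, and divided the counts by DESeq2 size factors. The deposited values are therefore a normalized signal, in 1 table for J1 cells and 1 for the tet-off lines. Dividing each column by its smallest step gave whole reads for every value, within 0.01 of a read, and these served for depth, reads of low genes and the count tests.

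Differences were tested with limma 3.58.1 in R 4.3.3 with a mean trend on log2(value + 1), with all groups of a table in 1 fit. Genes with more than 1 read in total were tested, 21533 of 23095 in the J1 table and 24007 of 25476 in the tet-off table, and p-values were adjusted by Benjamini-Hochberg over all of them. A gene was called where the adjusted p was under 0.05 and its log2 change exceeded 0.6, or 1 for Dox. Differences between lines were interaction terms, called on the adjusted p alone. Count tests (edgeR 4.0.16 and DESeq2 1.42.0) on the recovered reads, other scalings, filters, pseudocounts and designs, and leaving out each library were alternatives. The scripts were tested on simulated data.

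The 9 members were always named, with Sox2, Pou5f1 and Nanog as a check of the targets and other Sox genes called in the Sox2-cKO Dox comparison. Also named were up to 3 genes of each other list with the largest changes at a mean of at least 50. The last were the 2 genes most like each member that reached this mean. The few genes named outside this rule are marked in the text. The members and lists were chosen with earlier results of these data known. Intervals on ratios of reads are exact and cover counting error only.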

Additional observations from a re-analysis of the deposited data

Results flagged for a closer look

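The results here are differences between lines in the same contrast, each tested by an interaction term in limma and past an adjusted p of 0.05. For the Dox effect, the Sox2-cKO line exceeded the Nanog-cKO line on the log2 scale by 2.61 for Sox9, 1.40 for Sox4 and 0.32 for Sox15, and lay below it for Sox13 (-1.87) and Sox21 (-2.69). The Sox15 difference was lost under 10 of 17 alternatives, edgeR (adjusted p = 0.15) and DESeq2 (adjusted p = 0.11) among them. Against the Oct4-cKO line, the Dox effect in the Sox2-cKO line was higher for Sox3 (3.72), Sox9 (2.21) and Sox4 (0.37), and lower for Sox21 (-1.41) and Sox15 (-0.56).

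The remaining comparisons of lines were added after seeing the data. The Dox effect in the Oct4-cKO line against the Nanog-cKO line was higher for Sox4 (1.04) and Sox15 (0.88), and lower for Sox12 (-0.44), Sox21 (-1.28), Sox13 (-1.97) and Sox3 (-4.91). For the conversion of ESCs to L-EPSCs, the effect in the Sox2-cKO line against the Oct4-cKO line was higher for Sox4 (0.79) and Sox12 (0.44), and lower for Sox15 (-0.40), Sox21 (-1.84) and Sox9 (-2.64), where 20.2% of all genes and 38.5% of the expressed genes differed. The Sox12 difference was lost under 4 of 17 alternatives and the Sox15 difference under 3, with adjusted p up to 0.062 and 0.061. Against the Nanog-cKO line it was higher for Sox15 (0.44), and lower for Sox12 (-0.53), Sox9 (-1.57) and Sox21 (-2.81), where 25.5% and 45.7% differed. The Sox9 difference was lost under 5 of 17 alternatives, 4 of them leaving out 1 library (without Sox2-cKO L-EPSC replicate 2 or ESC replicate 2, or Nanog-cKO L-EPSC replicate 1 or ESC replicate 2), with adjusted p up to 0.11. The effect in the Oct4-cKO line against the Nanog-cKO line was higher for Sox15 (0.84), and lower for Sox4 (-0.72), Sox21 (-0.97) and Sox12 (-0.98), where 25.8% and 46.5% differed.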

How the results depend on the processing

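Counts of members called stayed within 1.5 times under 221 of 228 alternatives. With a fold threshold of 1, they were 1 for L-EPSCs against D-EPSCs and 2 for the conversion of the Nanog-cKO line. With only the compared groups fitted, they were 3 for the conversion of the Sox2-cKO line and 3 for that of the Nanog-cKO line. With a threshold of 0.6, the count for Dox in the Nanog-cKO line was 1 (Sox12). At that threshold Sox12 was also called higher with Dox in the Sox2-cKO line (0.61), where the count stayed within 1.5 times. On leaving out 1 library, the count was 3 to 5 for the conversion of the Sox2-cKO line and 3 to 5 for its difference from the Oct4-cKO line. The cause was not tested.

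Of 1824 values of single members, 1724 kept their direction and call, 59 lost the call, 22 gained one and 19 reversed. The calls of Sox4, Sox9, Sox13 and Sox21 with Dox in the Sox2-cKO line held under all 14 alternatives. All reversals came from leaving out 1 library. The ranges were -0.27 to 0.44 for Sox9 in J1 L-EPSCs against ESCs, and -0.01 to 0.40 for Sox3, -0.09 to 0.04 for Sox11 and -0.02 to 0.03 for Sox13 in L-EPSCs against D-EPSCs. They were -0.65 to 0.07 for Sox3 in the Oct4-cKO conversion and -0.04 to 0.23 for Sox13 in the Dox difference of the Sox2-cKO and Oct4-cKO lines. For conversion differences they were -0.78 to 0.45 (Sox11) and -0.24 to 0.02 (Sox13) for Sox2-cKO minus Oct4-cKO, -1.08 to 0.14 (Sox11) for Sox2-cKO minus Nanog-cKO, and -0.63 to 0.01 (Sox11) and -0.18 to 0.09 (Sox13) for Oct4-cKO minus Nanog-cKO. Sox9 in D-EPSCs against ESCs was gained with edgeR (adjusted p = 0.011) and DESeq2 (adjusted p = 0.047).

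Replicate numbers did not pair the samples: over pairs of groups, deviations of same-numbered libraries correlated between -0.0093 and -0.0013 in the J1 table and between -0.028 and 0.04 in the tet-off table. With the replicate block, 6 members rather than 5 were called for D-EPSCs against ESCs. The Dox difference between the Sox2-cKO and Nanog-cKO lines also had 6 rather than 5, and the other counts were as without the block.
With 2 libraries a group, depth limits Sox3, Sox9 and Sox11 most, with 1 to 10 reads in some groups.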
